A study of Solanum lycopersicum with 8 samples.

Results

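The B class and C/D class MADS-box genes of tomato are described here in dissected shoot apical meristems, the domes of dividing cells that form leaves and later flowers. The 8 genes were chosen by identifier, out of 34722 genes in the deposited table. They are the B class genes TM6 (Solyc02g084630), TAP3 (Solyc04g081000), GLO1 (Solyc08g067230) and GLO2 (Solyc06g059970), the C class genes TAG1 (Solyc02g071730) and TAGL1 (Solyc07g055920), and the D class genes TAGL11 (Solyc11g028020) and MBP3 (Solyc06g064840). Meristems came from acetone-fixed greenhouse seedlings of the wild type (WT) and of the late termination (ltm) mutant, each with 4 leaves and with 6 leaves. The series calls the WT meristems with 4 leaves vegetative and those with 6 leaves the floral transition. No treatment other than the genotype is given, and the labels name neither the cultivar nor the mutated gene. Each of the 4 groups had 2 RNA-seq libraries, labelled A and B. The labels do not say whether the repeats came from separate plants, and the p-values below measure no more than the spread of the deposited libraries, which could be technical.

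Floral organ identity follows a combinatorial scheme of MADS-box transcription factors. B class genes specify petals and stamens, C class genes stamens and carpels, and D class genes ovules, and their proteins act in complexes with the E class (SEPALLATA) proteins. B class proteins work as pairs of one protein of the DEFICIENS/APETALA3 lineage, to which TM6 and TAP3 belong, and one of the GLOBOSA/PISTILLATA lineage, to which GLO1 and GLO2 belong. In a shoot apical meristem that still forms leaves these genes are usually little used, because flower meristems switch them on as the organs are laid down.

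Of the 8 genes, TM6 and MBP3 were read in appreciable number in every library, and the other 6 were near or at 0. TM6 had 5592 reads over the 8 libraries and MBP3 had 697. TAP3 had 12, GLO1 and TAG1 had 8 each, GLO2 had 6, and TAGL1 and TAGL11 had 0. Values below are the deposited read counts, which the authors scaled by library. A gene entered the tests if its value was at least 10 in at least 2 libraries, which 55.3% of all genes did. TM6 and MBP3 met this limit in all 8 libraries and the other 6 genes in none. The number of reads is not compared between genes, since it also depends on transcript length. In whole meristems, fewer cells that use a gene and less RNA of it per cell cannot be told apart.

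The libraries had the markers of the labelled tissue. All 5 meristem markers (TKN2, TKN1, WUS, CLV3 and GOB) passed the filter, and their summed value was 9025 to 10521 in WT 4 leaves, 10365 to 12818 in WT 6 leaves, 11415 to 14328 in ltm 4 leaves and 14819 to 15235 in ltm 6 leaves. Over both stages the KNOX gene TKN1 had a log2 difference of 0.96 ± 0.10 between ltm and WT (adjusted p = 0.0360 in limma). Leaving out any one library other than ltm 4 leaves B ended this call (adjusted p 0.0571 to 0.269 in limma), with differences of 0.88 to 1.03. Of the 4 markers of flower organs outside the 8 genes, the E class genes TM5 and TM29 had at most 1 and 4 reads in a group, whereas the YABBY genes CRCa and CRCb passed the filter. All 8 green leaf markers were present, with a summed value of 27343 in ltm 4 leaves B, 21402 in WT 4 leaves B and 14890 to 19530 in the other 6 libraries. WT 4 leaves B and ltm 4 leaves B stood apart on the first principal component (35.4% of the variance), at 46.4 and 44.2 against -38.9 to 5.57 in the other 6 libraries. On the second component (20.8% of the variance) WT 6 leaves B stood apart, at -49.4 against -9.49 to 25.6 in the other libraries.

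TM6 is the B class gene of the lineage that Arabidopsis has lost, and in tomato it acts in stamens beside TAP3. In WT with 4 leaves its value was 686.3 in A and 507.4 in B, and with 6 leaves 874.3 in A and 893.6 in B. In ltm with 4 leaves it was 737.1 in A and 503.6 in B, and with 6 leaves 605.7 in A and 821.8 in B. The 2 WT libraries with 6 leaves were thus the highest of all 8 and close to each other, while the other groups each held a spread of more than 20% of their mean. The groups of WT did not overlap between the stages, as for 20.9% of all tested genes in this direction, and those of ltm did. By mean the order was 883.9 ± 13.6 in WT 6 leaves, 713.7 ± 153 in ltm 6 leaves, 620.3 ± 165 in ltm 4 leaves and 596.9 ± 127 in WT 4 leaves (SD, n = 2). Counting error was small beside the spread of WT 4 leaves, with a 95% Poisson interval of 463.3 to 554.6 for the lower value. The 2 WT 6 leaves libraries were within counting error of each other, with an interval of 817.4 to 934.1 for A.

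**Figure D1:**
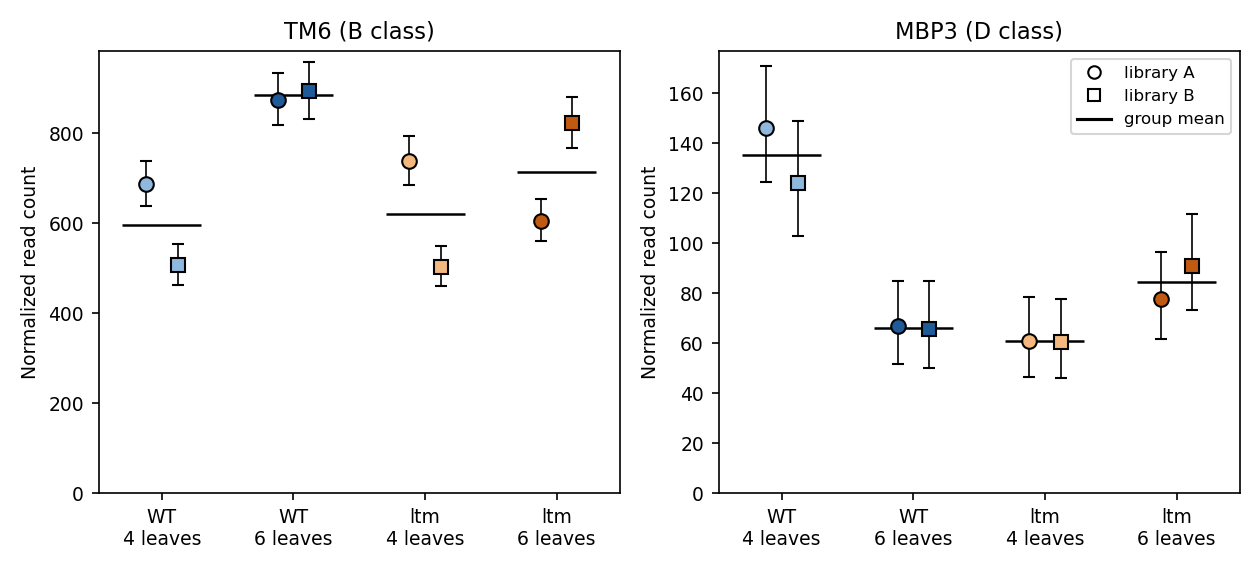
Normalized read counts of TM6 (left) and MBP3 (right) in each library, by group, with circles for A and squares for B; bars are exact 95% Poisson intervals and horizontal lines are group means. TM6 is highest in both WT libraries with 6 leaves (874.3 and 893.6), and MBP3 is highest in both WT libraries with 4 leaves (146.2 and 124.2).

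The stage difference of TM6 had the same sign in the WT libraries of both letters and opposite signs in ltm. From 4 to 6 leaves in WT the difference on the log2(value + 1) scale was 0.58 ± 0.23 (SE; 95% interval 0.056 to 1.11), or 1.50-fold, with an unadjusted p of 0.0341 in limma and 0.727 adjusted over all 19186 genes tested. Among these genes 3.12% had an unadjusted p under 0.05 in this direction and 0% passed after adjustment. Without WT 4 leaves B the WT difference was 0.36 (unadjusted p = 0.208 in limma), and without WT 4 leaves A it was 0.80 (unadjusted p = 0.0188 in limma). Taken within the letters, it was 0.35 in A and 0.82 in B. In ltm the fitted difference was 0.21 ± 0.23 (unadjusted p = 0.382 in limma), made of -0.28 in A and 0.71 in B. Averaged over the genotypes it was 0.40 ± 0.16 (unadjusted p = 0.0393 and adjusted p = 0.512 in limma; 4.5% of all tested genes had an unadjusted p under 0.05 in this direction). That average lay at 0.033 in the A libraries and 0.76 in the B libraries. TM6 was lowest in the 2 libraries that stood apart on the first component, WT 4 leaves B and ltm 4 leaves B. Without both, the average over the genotypes was 0.15; the part of these libraries in the difference was not tested beyond this.

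Between the genotypes no difference of TM6 was established at either leaf number. At 4 leaves ltm minus WT was 0.046 ± 0.23 (95% interval -0.48 to 0.57, unadjusted p = 0.846 in limma), and the sign turned when WT 4 leaves B (-0.17) or ltm 4 leaves A (-0.23) was left out. At 6 leaves it was -0.32 ± 0.23 (95% interval -0.85 to 0.20, unadjusted p = 0.192 in limma), with -0.53 in the A libraries and -0.12 in the B libraries. Leaving out the A library of ltm 6 leaves gave -0.11, and leaving out its B library -0.54. Both ltm libraries with 6 leaves were below both WT ones, which was also so for 21.9% of all tested genes in this direction. The stage difference of ltm minus that of WT was -0.37 ± 0.32 (95% interval -1.11 to 0.37, unadjusted p = 0.284 in limma). With each library left out it ranged from -0.65 (without ltm 4 leaves B) to -0.096 (without ltm 4 leaves A). These intervals do not show that the genotypes have the same TM6 level.

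MBP3, a D class gene that acts with TAGL11 in ovules, seeds and the inner tissues of the tomato fruit, had a different pattern. Its value in WT with 4 leaves was 146.2 in A and 124.2 in B, and with 6 leaves 66.7 in A and 65.7 in B. In ltm with 4 leaves it was 60.9 in A and 60.4 in B, and with 6 leaves 77.6 in A and 90.97 in B. None of the 4 groups overlapped another, and the share of all tested genes for which this held was not taken. For single comparisons, 21% of all tested genes were without overlap and lower at 6 leaves in WT, and 11.7% without overlap and lower in ltm at 4 leaves. WT meristems with 4 leaves stood at 135.2 ± 15.5 (SD, n = 2), ltm with 6 leaves at 84.3 ± 9.46, WT with 6 leaves at 66.2 ± 0.73 and ltm with 4 leaves at 60.7 ± 0.34. The libraries of WT 6 leaves and of ltm 4 leaves lay closer together than counting error alone would give on average: WT 6 leaves A had 67 reads, with a 95% Poisson interval of 51.7 to 84.7 on the value scale, and ltm 4 leaves B had 60, with one of 46.1 to 77.8. The order of these last groups is therefore within counting error.

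MBP3 was about 2 times as high in WT with 4 leaves as in either neighbouring group of the design. From 4 to 6 leaves in WT the difference was -1.01 ± 0.21 on the log2(value + 1) scale (SE; 95% interval -1.50 to -0.53), or 0.49-fold, with an unadjusted p of 0.00129 and an adjusted p of 0.727 in limma. It ranked 13 of 19186 genes by p, and 2.92% of the tested genes had an unadjusted p under 0.05 in this direction. At 4 leaves ltm minus WT was -1.14 ± 0.21 (95% interval -1.62 to -0.65), or 0.45-fold, with an unadjusted p of 0.000622 and an adjusted p of 0.724 in limma. That placed it at rank 16, with 1.31% of the tested genes at an unadjusted p under 0.05 in this direction and 0.00521% called after adjustment. Both comparisons share the WT 4 leaves libraries, so they are not independent of each other. The difference was similar within the letters, at -1.12 in A and -0.91 in B between the WT stages, and at -1.25 in A and -1.03 in B between the genotypes.

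At 6 leaves and within ltm, MBP3 had the opposite sign with smaller values. ltm minus WT at 6 leaves was 0.34 ± 0.21 (95% interval -0.15 to 0.82, unadjusted p = 0.145 in limma; 6.45% of all tested genes were under 0.05). From 4 to 6 leaves in ltm the difference was 0.46 ± 0.21 (95% interval -0.021 to 0.95, unadjusted p = 0.0586 in limma; 3.19% of all tested genes were under 0.05). The libraries did not overlap in either comparison, as for 22.5% and 13.1% of all tested genes in the same direction.

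The stage difference of MBP3 was tested between the genotypes as an interaction. It was higher by 1.48 ± 0.30 in ltm than in WT (95% interval 0.79 to 2.16), with an unadjusted p of 0.00107 in limma. MBP3 ranked 3 of 19186 by this p, and 0.719% of the tested genes were under 0.05. After adjustment over all genes p was 0.9999, and 0 genes were called by limma, edgeR or DESeq2. The value was 1.46 within the A libraries and 1.49 within the B libraries. It lay between 1.36 and 1.59 when each library was left out in turn and was 1.59 without both 4 leaves B libraries, which leaves 1 library per genotype at that stage. On the recovered reads edgeR gave 1.51 (unadjusted p = 0.00124) and DESeq2 1.50 (unadjusted p = 0.00185). In the 4 comparisons between stages or genotypes (WT stages, ltm stages, and genotypes at each leaf number), no overlap with the same signs as MBP3 was found for 53 of 19186 tested genes (0.276%); the other pairs of groups were not part of this count. Averaged over the stages, ltm minus WT was -0.40 ± 0.15 (unadjusted p = 0.0275 and adjusted p = 0.520 in limma; 3.68% of all tested genes were under 0.05 in this direction and 0.0417% were called). The summed meristem markers were higher in ltm than in WT at each leaf number. MBP3 was lower in ltm at 4 leaves and higher at 6. Of the 5 markers, 2 were higher in ltm at an unadjusted p under 0.05 in limma at each leaf number, and 0 were lower. Over all tested genes 1.59% were higher at 4 leaves and 3.57% at 6 leaves. CLV3 had the opposite sign to the sum, at -0.61 ± 0.40 and -0.52 ± 0.40 (ltm minus WT at 4 and 6 leaves). The part of these markers in the MBP3 differences was not tested.

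**Figure D2:**
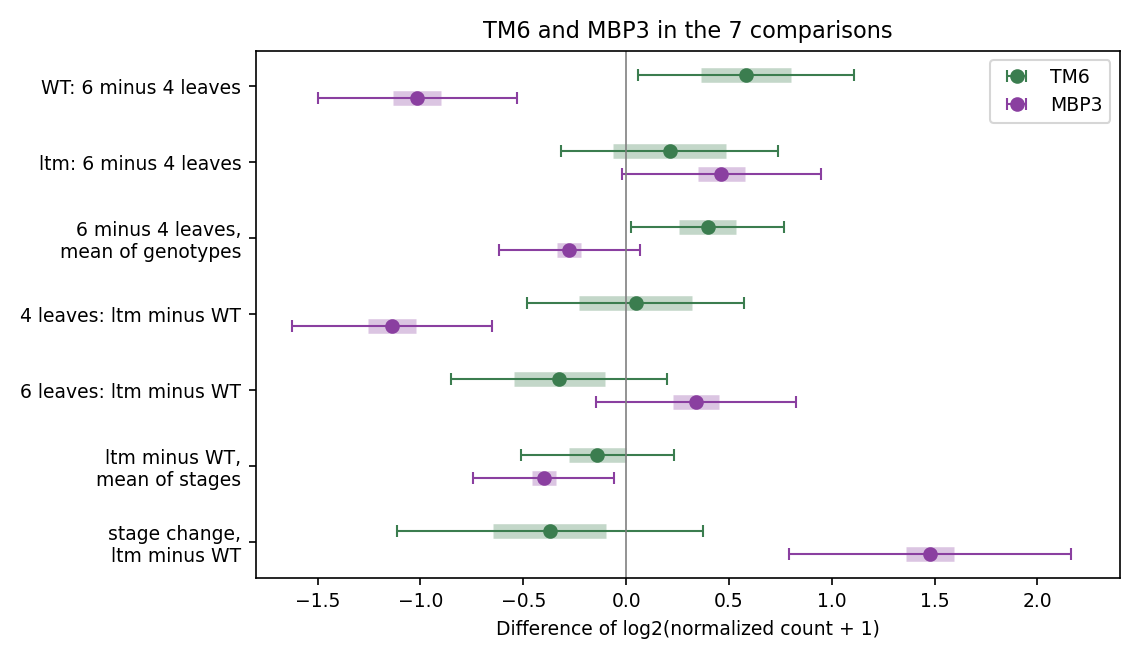
Differences of log2(normalized count + 1) for TM6 and MBP3 in the 7 comparisons; points are fitted differences, thin bars 95% intervals from limma and pale bands the range when each library is left out in turn. The MBP3 bands stay on one side of 0 in every comparison, while TM6 crosses 0 for the ltm stages and for the genotypes at 4 leaves.

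The remaining B class genes, which encode the proteins that TM6 is known to pair with and its close relative TAP3, were barely detected. TAP3, which specifies petals and stamens, had 5 reads in WT 4 leaves A, 2 in WT 4 leaves B, 3 in ltm 4 leaves B, 1 in each ltm library with 6 leaves, and 0 in the other 3. It thus had 7 reads in WT with 4 leaves and 0 in WT with 6 leaves. GLO1 had 2 reads in WT 6 leaves A and 4 in WT 6 leaves B, 1 in ltm 4 leaves B and 1 in ltm 6 leaves B, and 0 in the other 4 libraries. It thus had 6 reads in WT with 6 leaves and 0 in WT with 4 leaves. Against ltm with 6 leaves, which had 1 read, the ratio was 6.54 with a 95% counting interval of 0.79 to 300.8. GLO2 had 2 reads in each of WT 4 leaves B, WT 6 leaves A and WT 6 leaves B, and 0 in the other 5 libraries, among them all of ltm. WT with 6 leaves thus held 4 reads of it against 0 in ltm with 6 leaves.

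The libraries of WT with 6 leaves, where TM6 was highest, held 10 of the 14 reads of the GLO genes and 0 of the 12 reads of TAP3. In a limma fit without the filter, none of TAP3, GLO1, GLO2 or TAG1 passed adjustment in any of the 7 comparisons, and the smallest adjusted p was 0.518 (GLO2, ltm minus WT over both stages). That fit treats logs of 0 to 6 reads as continuous values. At this depth no difference of TAP3, GLO1 or GLO2 was established.

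Among the C class genes and the other D class gene, TAG1, the tomato AGAMOUS gene of stamens and carpels, had 8 reads. Of these, 6 were in ltm 4 leaves B, 1 in WT 4 leaves A and 1 in WT 6 leaves B. A single library, one of the 2 that stood apart on the first component, therefore held most of them, and without it ltm with 4 leaves had 0 reads. The ratio of ltm to WT at 4 leaves was 6.22, with a 95% counting interval of 0.76 to 286.3. TAGL1, a C class gene of carpel and fruit development, and TAGL11, an ovule gene, had 0 reads in every library. Over all 161098589 reads a count of 0 allows a share of up to 1.86e-06% for each. As many as 9617 genes (27.7% of all) had 0 reads throughout.

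**Figure D3:**
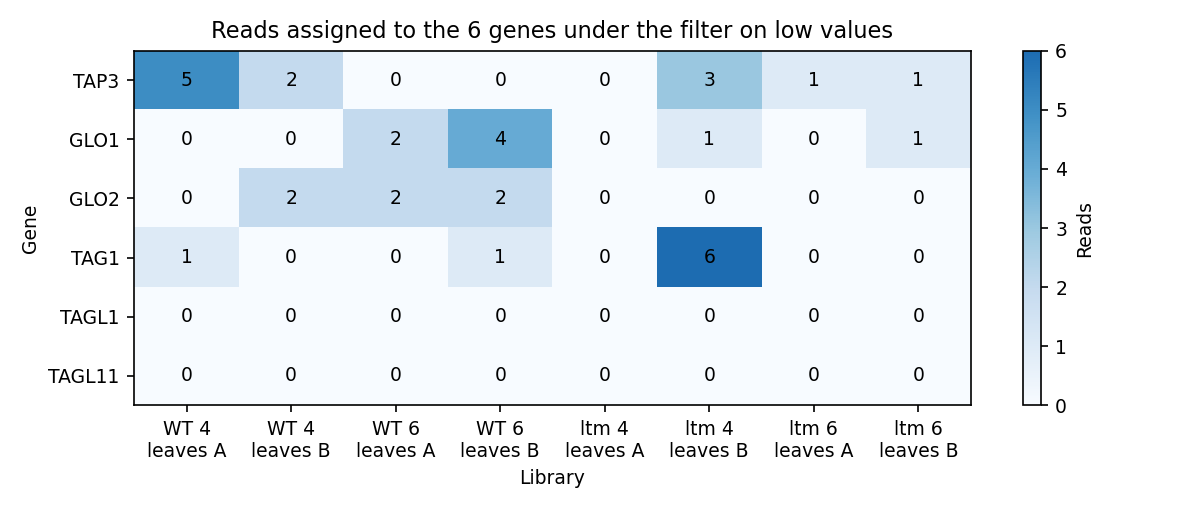
Reads assigned to the 6 genes under the filter (rows) in each library (columns); the number in each cell and its shade give the reads. No cell exceeds 6 reads, TAGL1 and TAGL11 are at 0 throughout, and the largest cell is TAG1 in ltm 4 leaves B.

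Genes that act with or before the B and C/D class were set beside them. The E class and AGL6 list provides the partners of B, C and D proteins, and 1 of its 7 genes passed the filter. This was AGL6, a close relative of the SEPALLATA genes, at 12.1 ± 1.15 in WT and 0.50 ± 0.71 in ltm with 6 leaves (unadjusted p = 0.00233 and adjusted p = 0.621 in limma). These values rest on 23 WT reads against 1 ltm read, or 25.1 times as many after scaling (95% counting interval 4.07 to 1033). With 4 leaves AGL6 was at 12.9 ± 3.97 in WT and 6.56 ± 4.97 in ltm (unadjusted p = 0.202 in limma). From 4 to 6 leaves its log2 difference was -0.050 ± 0.73 in WT and -2.24 ± 0.73 in ltm (SE). Summed over the list, values lay between 14.6 and 54.8 in the WT libraries and at most at 13.1 in the ltm libraries. The closest libraries were WT 4 leaves A at 14.6 and ltm 4 leaves B at 13.1, with 10.1 from AGL6 in each. No counting interval of the sum was taken, so a difference at 4 leaves is not established. With 6 leaves the lowest WT sum was 32.8 and the highest ltm sum 4.73. The share of all tested genes with every WT library above every ltm library was not taken. TM5, the tomato SEPALLATA3 relative, and both GLO genes were at 0 to 4 reads per library. Of the other SEPALLATA genes, J2 had 20 reads in A and 7 in B in WT with 6 leaves, and LIN had 10 in A and 6 in B. In ltm with 6 leaves J2 had 1 read over both libraries and LIN had 0. RIN had 5 reads in each of these groups, EJ2 had 9 in WT against 1 in ltm, and TM29 had 3 against 0. With 4 leaves J2 had 6 reads in WT against 0 in ltm, LIN 4 against 2 and RIN 4 against 0. EJ2 and TM29 had more reads in ltm at that stage, with 1 in WT against 4 and 2 against 4. None of these genes passed the filter.

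The list of flower meristem identity genes and regulators had 12 of 14 genes tested. One of them, Solyc05g056620, listed as a MADS-box gene and of uncertain name, passed the filter only through WT with 6 leaves, with 1 read at 4 leaves and 254 at 6 leaves, and is left out of the counts. Of the other 11, 4 were higher and 0 lower in WT at 6 against 4 leaves at an unadjusted p under 0.05 in limma, where 3.12% of all tested genes were higher. In ltm against WT at 6 leaves 0 were higher and 6 lower, where 2.88% of all tested genes were lower. After adjustment 0 were called in either comparison. The median difference of the 11 was 0.22 and -0.34, beside -0.0029 and -0.0054 over all genes tested. Among them MBP20, FUL1 and FUL2 had the smallest p in the WT comparison, with differences of 1.29 to 3.22, against 0.58 for TM6. FALSIFLORA (FA), whose Arabidopsis counterpart LEAFY switches on B and C genes, was at 4880 ± 9.58 and 5249 ± 223 in WT with 4 and 6 leaves and at 3937 ± 1001 and 3877 ± 437 in ltm. ANANTHA (AN), the counterpart of UNUSUAL FLORAL ORGANS, which acts with LEAFY on B genes in Arabidopsis, had 0 and 1 reads in WT with 4 and 6 leaves and 15 and 9 in ltm. Of the 15 reads 4 were in A and 11 in B, and of the 9 reads 5 were in A and 4 in B. AN did not pass the filter and was not tested. WUS, which takes part in switching on AGAMOUS in Arabidopsis, was at 185.0 ± 46.0 and 187.8 ± 16.3 in WT and at 227.6 ± 25.6 and 189.7 ± 32.8 in ltm.

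Both carpel YABBY genes were tested and are named with their values in view. CRCa had a value of 229.5 ± 1.17 in WT with 4 leaves and 161.3 ± 15.4 with 6 leaves (-0.51 ± 0.19, unadjusted p = 0.0274 in limma), the same sign as MBP3. In ltm it stood at 273.4 ± 36.3 and 296.3 ± 61.7, and at 4 leaves, where MBP3 was lower in ltm, CRCa was at 0.25 ± 0.19 (ltm minus WT). At 6 leaves CRCa stood at 0.86 ± 0.19 (ltm minus WT, unadjusted p = 0.00186 in limma), the same sign as MBP3. CRCb had 6.40 ± 1.29 and 15.5 ± 2.15 in WT and 20.3 ± 11.6 and 27.5 ± 13.4 in ltm, with ltm minus WT at 1.42 ± 0.55 at 4 leaves (unadjusted p = 0.0330 in limma) and 0.71 ± 0.55 at 6 leaves. Neither passed adjustment over all genes in any of the 7 comparisons.

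**Figure D4:**
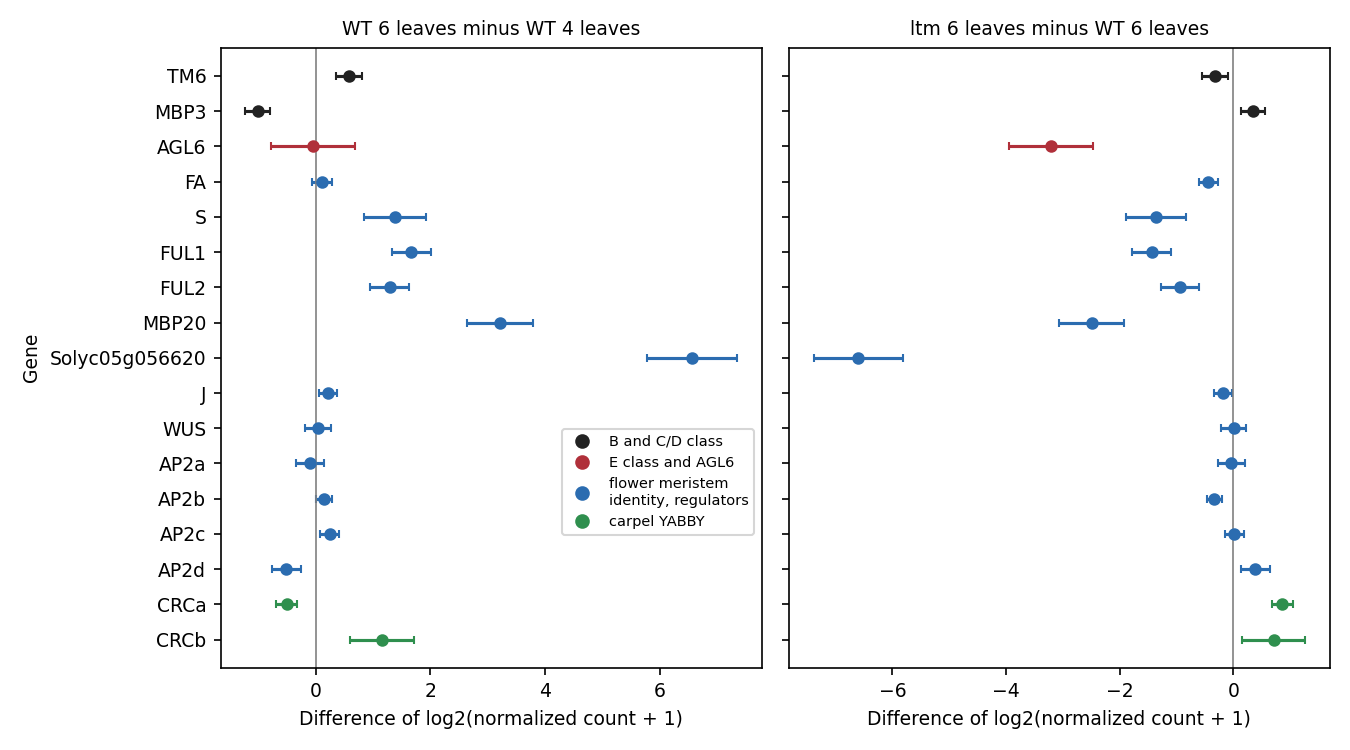
Differences of log2(normalized count + 1) with their SE for the tested B and C/D class genes (black), AGL6 (red), flower meristem identity genes and regulators (blue) and carpel YABBY genes (green), in WT at 6 against 4 leaves (left) and in ltm against WT at 6 leaves (right). TM6 and MBP3 have opposite signs in each panel, and both are smaller than MBP20; Solyc05g056620 passed the filter only through WT with 6 leaves.

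Over the 8 libraries the patterns of TM6 and MBP3 were unlike, with a correlation of -0.25. The genes most like TM6 were Solyc05g014030 and Solyc10g081480 (r = 0.99 each over 8 libraries, log2 scale), and 357 tested genes had an r of at least 0.9. MBP3 had 2 such genes, Solyc06g060320 (r = 0.95) and Solyc07g054190 (0.93). Their differences between groups were much smaller than those of MBP3: Solyc06g060320 was at 1075 ± 17.4 in WT 4 leaves and 1003 ± 5.01, 981.8 ± 1.28 and 998.8 ± 12.6 in WT 6 leaves, ltm 4 leaves and ltm 6 leaves.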

How the data were processed

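Per the submitters' processing notes, the authors used DESeq2 1.6.3, HTSeq 0.6.1p1 and TopHat2 2.0.10. The genome build was not given in the sources used here. Deposited signal values are gene read counts that the authors divided by 1 size factor for each library (0.883 to 1.09). Divided by the smallest value of its library, every value was whole (100% of values, within 1e-06 of the read number), which gave the reads: 17895357 to 21987881 per library. The kit does not mark strand, so reads of overlapping genes cannot be told apart.

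Since the values were normalized, log2(value + 1) of all 8 libraries was fitted in R 4.3.3 with limma 3.58.1 (trend on), 1 mean per group, for 19186 genes, with Benjamini-Hochberg adjustment over all of them and a threshold of 0.05. Fold changes understate the change of low genes. Intervals are exact (Poisson, or Clopper-Pearson for ratios, 95%), the limit that 0 reads allow is 3 reads over all libraries, and both cover counting error only. The recovered reads also went into edgeR 4.0.16 and DESeq2 1.42.0 as alternatives, and the limma code was tested on simulated data. Replicate libraries differed by more than sampling noise in every group (chi-square per degree of freedom 12.9 to 39.0).

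The genes, lists and tests were chosen with earlier results of these data known. All 8 genes are described. The rule names up to 4 tested genes of smallest p from the E class and identity lists, with FA and AN. Of the E class list AGL6 alone was tested. TM5, TM29, RIN, J2, EJ2, LIN, WUS, TKN1, CLV3, CRCa and CRCb are named outside the rule, with their values seen. The likeness rule took the 5 genes of highest Pearson correlation, of which 2 are named. Symbols were compared with RefSeq (SLM_r2.1) by name and chromosome: 7 of the 8 matched, TM6 as TDR6, TAP3 as DEF, GLO2 as TPI, TAG1 as AG1 and TAGL11 as AGL11, and GLO1 rests on its identifier. RefSeq also lists a GLO2 on chromosome 10, a different locus.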

Additional observations from a re-analysis of the deposited data

Results flagged for a closer look

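For MBP3 the stage change of ltm minus that of WT stood out, at 1.48 on the log2 scale, because both WT libraries with 6 leaves were below both with 4 leaves while both ltm libraries with 6 leaves were above both with 4 leaves. Opposite moves without overlap, in either orientation, were found for 1.75% of all tested genes, and for 0.824% in this orientation. The interaction test in limma did not pass after adjustment over all genes (adjusted p = 0.9999). The groups of 2 libraries are too small for a test of single outlying libraries.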

How the results depend on the processing

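No call of TM6 or MBP3 was made under any alternative: the smallest adjusted p was 0.115 for TM6 (6 minus 4 leaves over both genotypes) and 0.281 for MBP3 (ltm minus WT at 4 leaves). MBP3 kept its direction in all 7 comparisons under every alternative run. TM6 turned sign for the ltm stages without both 4 leaves B libraries (-0.063), and with each library left out in turn it lay between -0.063 and 0.49 there, and between -0.23 and 0.32 for ltm minus WT at 4 leaves. The replicate letters may pair the libraries: deviations of the A libraries from their group means correlated at 0.13 to 0.52 between groups, while the labels state no pairing. With the letter as a replicate block MBP3 kept an interaction of 1.48 (unadjusted p = 0.00132, adjusted p = 0.9999 in limma), and no call of either gene changed. Counts over all genes depended on the tool. DESeq2 called 11 genes between the WT stages, 37 between the genotypes at 6 leaves, 19 at 4 leaves, 4 between the ltm stages, 145 for the genotype and 53 for the stage averaged over the other factor, where limma called 0, 1, 1, 0, 8 and 0. The limma count for the genotypes at 6 leaves was 2 with a pseudocount of 5 or no filter, 4 with only the groups compared or without both 4 leaves B libraries, and 1 to 2 with each library left out. It was 1 between the WT stages with a pseudocount of 5, 0 for the genotypes at 4 leaves with only the groups compared, and, for the genotype over both stages, 20 with the replicate block and 1 to 11 with each library left out. The cause was not tested. Depth limits TAP3, GLO1, GLO2 and TAG1, whose differences rest on 7 or fewer reads in a group. Of 364 values of these 4 genes under the alternatives, 40 moved by more than 1 SD and 20 changed sign.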

Other observations

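The tested genes near MBP3 by identifier had smaller values in the interaction. Solyc06g064830 was at 0.090 ± 0.15 and Solyc06g064870 at -0.013 ± 0.15, against 1.48 ± 0.30 for MBP3 (log2, SE). The next tested genes outward, Solyc06g064820 and Solyc06g064880, were at -0.024 ± 0.20 and 0.38 ± 0.62. This did not hold in every comparison. Between the ltm stages Solyc06g064880 was at 0.95 ± 0.44, against 0.46 ± 0.21 for MBP3. In the interaction the genes beside TM6, Solyc02g084620 and Solyc02g084640, stood at -0.21 ± 0.25 and 0.27 ± 0.27, against -0.37 ± 0.32 for TM6.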
